A study of Mus musculus with 4 samples.

Results

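The nuclear-encoded genes of oxidative phosphorylation were followed through the loss of histone deacetylase 3 in B220+CD43+ cells of mouse bone marrow. Markers of B-lineage, myeloid and other cells were all present in this sort. Members were matched by symbol, and the set was chosen with earlier results of these data known. It took the Nduf genes of complex I, Sdha to Sdhd of complex II and the Uqcr genes of complex III. It also took the nuclear Cox4 to Cox8 genes of complex IV and the Atp5 genes of ATP synthase, called complex V here. Cox6a2, which the symbol pattern matches too, was left out by name. The rule found 84 of the 23275 entries of the table, with 37 in complex I, 4 in complex II, 8 in complex III, 18 in complex IV and 17 in complex V. The authors tested 79 of the 84. The other 5, Ndufa4l2, Cox4i2, Cox7b2, Cox8b and Cox8c, were at 0.38 FPKM or less and were not tested. The symbol rule also took in some genes that are not subunits: Cox4nb, an older name of the neighbour gene Emc8, Cox7a2l, a supercomplex factor, and Atp5s and Atp5sl.

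RNA came from B220+CD43+ cells sorted from the marrow of C57BL/6 mice aged 8 weeks. Both genotypes carried Mb1cre on 1 allele, a recombinase driven by the B-lineage gene Cd79a. The 2 WT libraries came from Hdac3+/+ mice, and the 2 Hdac3KO libraries from Hdac3F/- mice, which carry 1 conditional and 1 null allele. Each library pooled cells of 2 mice. The authors deposited 1 value per gene and genotype in FPKM, sequenced fragments divided by transcript length and by library total, so no spread between libraries and no depth can be given here. Hdac3 itself was 46.8 FPKM in WT and 22.0 FPKM in Hdac3KO, 47.1% of WT, with q = 0.0016 in the authors' deposited table.

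The respiratory chain sits in the inner mitochondrial membrane. Complexes I and II pass electrons from NADH and succinate to coenzyme Q, complex III passes them on to cytochrome c, and complex IV hands them to oxygen. Complexes I, III and IV pump protons, and complex V uses the resulting gradient to make ATP. Each complex except complex II joins nuclear-encoded subunits with a few that are encoded in mitochondrial DNA, and dividing B-cell progenitors use the pathway beside glycolysis.

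Most members had slightly lower transcript levels in Hdac3KO cells, and few single members passed the test. A gene was called where q was under 0.05 in the authors' deposited table, which rests on a model of 2 libraries per genotype. Of the 79 tested members 2 were called lower, Cox7a2 and Atp5e, or 2.53%, and 0 were called higher. Over all 12683 tested genes 6.95% were called, with 4.14% lower and 2.81% higher. The members' share rests on 2 genes, and its difference from these shares was not tested. By the direction of the value alone, 73 of 79 members were lower in Hdac3KO. This held for 46.5% of the 12643 tested genes with a value above 0 in both genotypes. The members' median log2 fold change (Hdac3KO over WT) was -0.29, with quartiles of -0.41 and -0.19, or 82.0% of WT. The median of all tested genes was 0.03, with quartiles of -0.19 and 0.24. At an unadjusted p under 0.05 in the authors' deposited table, 19 members were lower, or 24.1%, against 8.95% of all tested genes, and 1 member, Cox7a2l, was higher, against 8.16% of all tested genes.

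Markers of other cells moved in the same libraries. All 9 B-lineage markers had higher values in Hdac3KO, with a summed level of 1934 FPKM in WT and 2729 FPKM in Hdac3KO, and Igll1, Vpreb1 and Pax5 passed the authors' test. All 9 myeloid markers had lower values, 8 of them called, and their sum was 10370 FPKM in WT and 2558 FPKM in Hdac3KO. The sums were 1705 and 2196 FPKM for 5 plasmacytoid dendritic markers, and 222 and 262 FPKM for 6 T and NK markers. For 4 erythroid markers the sums were 60.6 and 29.5 FPKM, with all 4 lower in value and 1 of them called. No marker of these 5 lists that was found in the table was at 0, and 2 of the 6 erythroid markers were not found. In bulk RNA fewer cells of a type and less RNA per cell cannot be told apart, and the part of these markers in the members' lower values was not tested.

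The differences were narrow in size. Of the 79 members, 36 were lower by 0.2 to 0.4 log2 units, or 45.6%, against 11.9% of all 12643 genes. Lower by at least 0.5 were 9 members, or 11.4%, against 9.16% of all genes. A difference of 1 log2 unit or more was found for 0 members and for 687 of the 12643 genes. Differences between these shares were not tested. Among tested genes with a mean of 50 to 500 FPKM, the range that held 68 members, the smallest decrease that the authors' Cuffdiff run called was -0.58, so none of these 1798 genes was called for a decrease of the members' median size. The log2 fold change divided by the authors' test statistic gives an approximate standard error, with a median of 0.21 over the tested members. The deposited p-values do not rank as this statistic does for some members, so the ratio is a rough guide and not the error behind the calls.

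**Figure D1:**
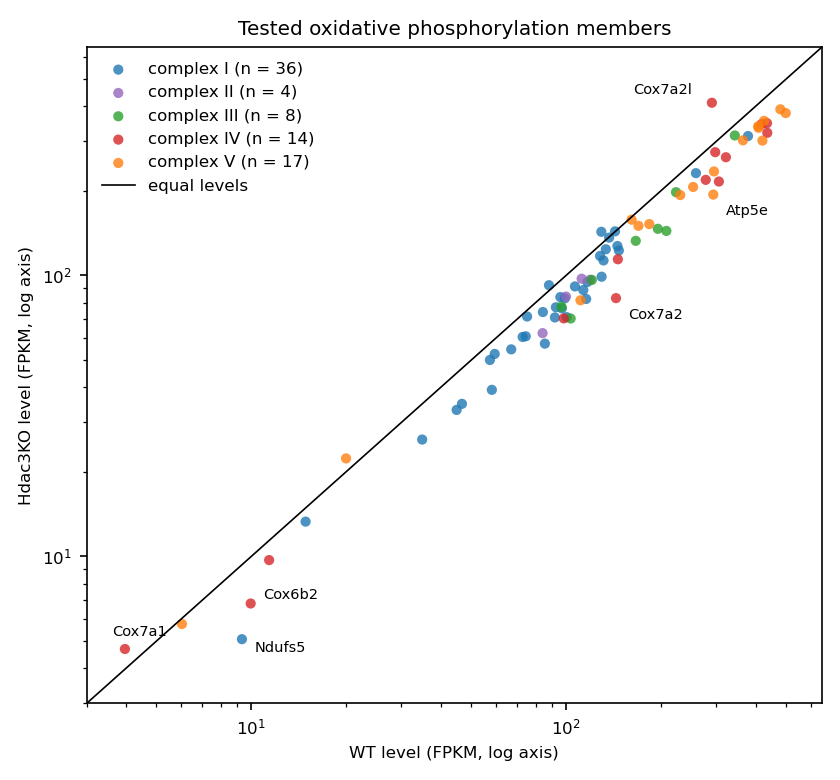
Level of each tested member in WT (x axis) and Hdac3KO (y axis), in FPKM on log axes, 1 point per gene coloured by complex, with the line of equal levels. Points lie below the line for 73 of 79 members, and Cox7a2l stands above it.

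Summed over the 84 members, the level was 13564 FPKM in WT and 11225 FPKM in Hdac3KO, 82.8% of WT. This was 2.32% of all FPKM in WT and 1.97% in Hdac3KO. The sums of the complexes in Hdac3KO ranged from 80.4% of WT for complex V to 85.4% for complex I, with 80.9% for complex III, 81.9% for complex II and 84.1% for complex IV. Their medians lay close together as well, at -0.27 for complex I, -0.28 for complex II, -0.33 for complex III, -0.33 for complex IV and -0.27 for complex V. The members of each complex spread more widely than these medians did, and differences between complexes were not tested.

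**Figure D2:**
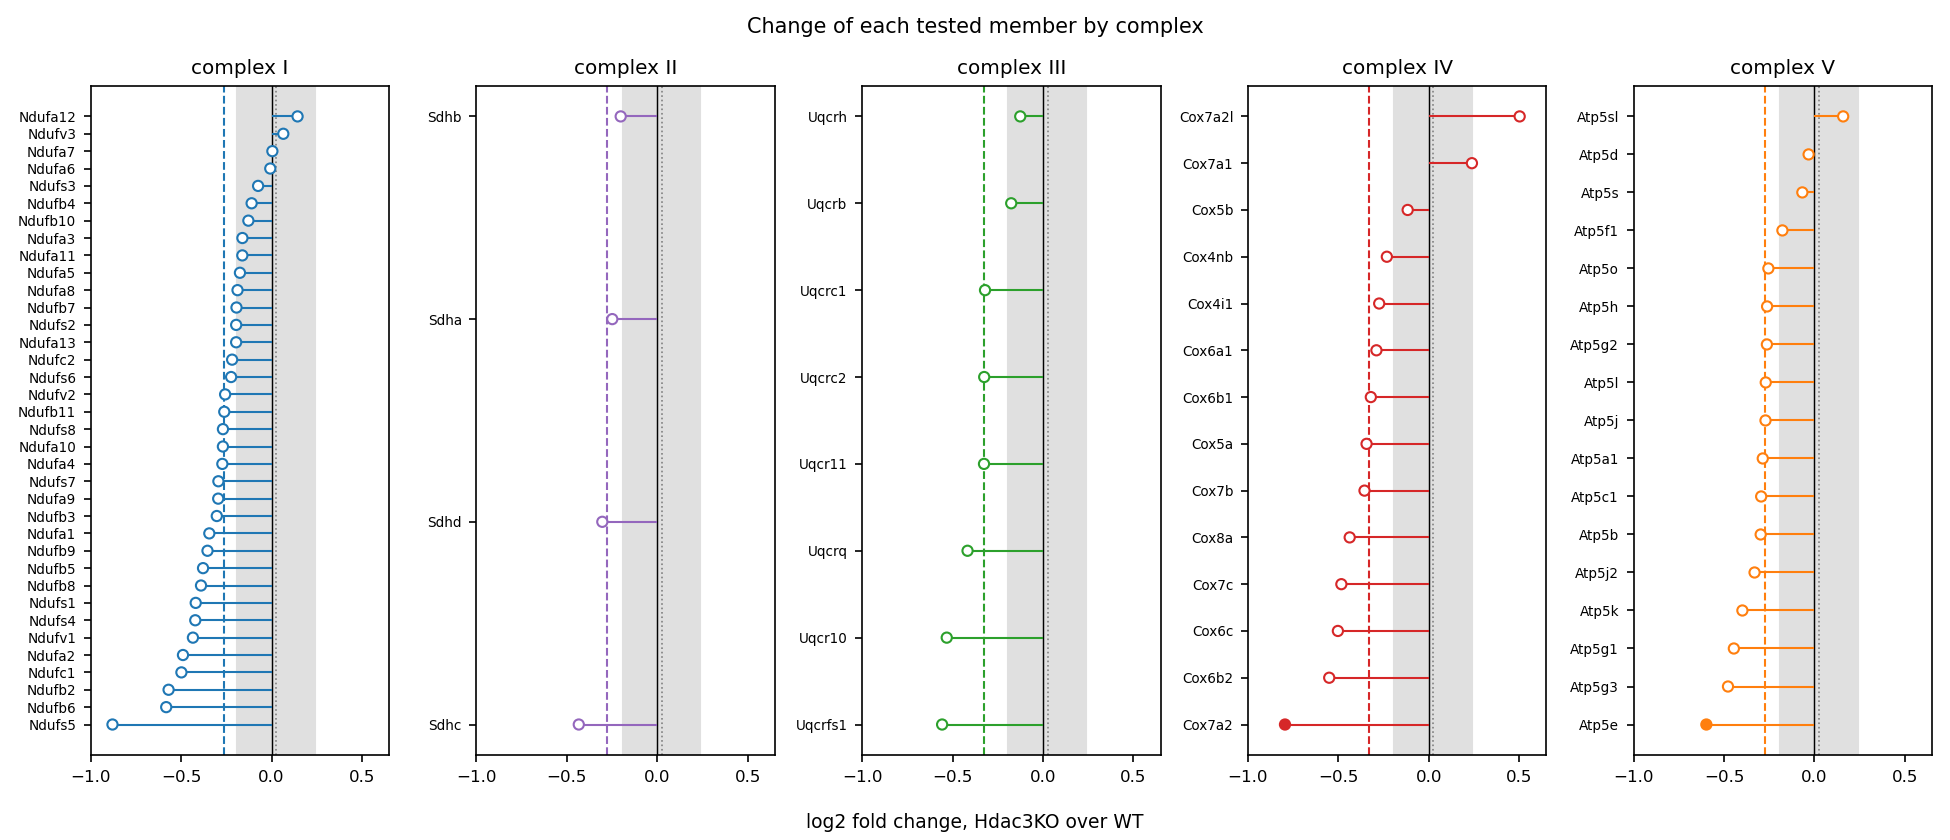
Log2 fold change (Hdac3KO over WT, x axis) of each tested member, in 1 panel per complex. Filled points passed the authors' test, dashed lines are complex medians, the dotted line is the median of all tested genes and the grey band their quartiles. The dashed lines lie between -0.33 and -0.27, left of the grey band, and only Cox7a2 and Atp5e are filled.

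The sequences before the start sites of 5 members are shown because these include both called genes, the lowest complex III member, the most abundant member and a complex I member with a site in common. RefSeq promoters of build GRCm38.p6, of 300 bases each, were matched for 69 of 84 members. The last 100 bases before the start are given 5′ to 3′ on the gene's strand, with matches to a searched motif in capitals.
Cox7a2 (chr9:79759854-79759953, minus strand): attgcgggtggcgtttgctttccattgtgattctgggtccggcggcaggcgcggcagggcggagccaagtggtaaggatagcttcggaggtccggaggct
Atp5e (chr2:174464102-174464201, minus strand): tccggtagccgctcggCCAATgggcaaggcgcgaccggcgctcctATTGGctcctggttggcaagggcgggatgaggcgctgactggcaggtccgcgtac
Uqcrfs1 (chr13:30545317-30545416, minus strand): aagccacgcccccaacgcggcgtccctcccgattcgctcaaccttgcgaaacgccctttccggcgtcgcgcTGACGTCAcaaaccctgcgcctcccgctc
Ndufb2 (chr6:39592465-39592564, plus strand): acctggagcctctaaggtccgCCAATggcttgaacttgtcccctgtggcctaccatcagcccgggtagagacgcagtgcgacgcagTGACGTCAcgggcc
Atp5k (chr5:108434400-108434499, minus strand): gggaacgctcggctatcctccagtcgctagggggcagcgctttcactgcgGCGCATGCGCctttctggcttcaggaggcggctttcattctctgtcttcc

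The stretches are rich in G and C, from 62% in Atp5k to 69% in Atp5e. Motifs of 5 factors known to bind respiratory gene promoters were searched on both strands of the whole window, and no overlap between motifs was removed. The NRF1 core, whose letters are the capitals of the Atp5k stretch, was in 5 of 69 member promoters, or 7.25%, against 2.36% of 9997 tested genes with an entry and 1.07% of all genes with one. AAGATGGC, a YY1 motif, was in 11 of 69, or 15.9%, against 5.30% of tested genes and 3.19% of all genes. TGACGTCA, the CREB motif, was in 4 of 69, or 5.80%, against 3.56% of tested genes and 2.03% of all genes. CCGGAAGT, an ETS and GABP motif, was in 5 of 69, or 7.25%, against 9.29% of tested genes and 4.31% of all genes. CCAAT, the NFY motif, was in 44.9% of members, 43.3% of tested genes and 41.1% of all genes. The 5 members with the NRF1 core had a median log2 fold change of -0.29 and the 62 without it -0.27, and the 11 with the YY1 motif had -0.29 against -0.27 for the other 56. The gap was widest for the CREB motif, at -0.41 for 4 members with it and -0.27 for 63 without, and these 4 include Uqcrfs1 and Ndufb2, which were chosen for display with their values known. For the ETS and GABP motif the medians were -0.26 and -0.27, and for the NFY motif -0.27 and -0.27. These shares describe letters in a window and not bound sites.

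Complex I, the entry point of electrons from NADH, had 36 tested members, of which 33 were lower in Hdac3KO and 0 passed the test in the authors' Cuffdiff table, with 7 lower at an unadjusted p under 0.05. Over all tested genes 6.95% were called and 8.95% were lower at that p, and differences from these shares were not tested. WT levels of the tested complex I members spanned 9.34 FPKM for Ndufs5 to 378 FPKM for Ndufa4. Ndufa4, which later work places in complex IV, was 378 and 313 FPKM in WT and Hdac3KO. By the mean of both genotypes Ndufa3 followed at 259 and 231 FPKM, and then Ndufa7 at 143 and 144 FPKM. The log2 difference of Ndufa7 was 0.0045, and that of Ndufa6, also of the matrix arm, was -0.0071.

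The catalytic arm of complex I reaches into the matrix. Its N module oxidises NADH, and the 8 members there had a median of -0.34. Ndufa2 was the lowest of them, at 116 and 82.5 FPKM, a difference of -0.49 with q = 0.317 in the authors' deposited table, and its entry shares its locus with another entry. Ndufv1, which carries the flavin, was 44.9 and 33.2 FPKM in WT and Hdac3KO, and Ndufs1, an iron-sulfur subunit, was 46.7 and 34.9 FPKM. The Ndufs1 entry also shares its locus with another entry, and its annotated exons overlap those of Eef1b2, which was 286 and 247 FPKM. Ndufs4 was 34.9 and 26.1 FPKM. These 3 differed by -0.43, -0.42 and -0.42 on the log2 scale, with unadjusted p of 0.0266, 0.0345 and 0.0393 and q of at least 0.199 in the authors' deposited table. Ndufa12 and Ndufv3, of the same module, were, besides Ndufa7, the only tested complex I members with a higher value in Hdac3KO, at 129 and 143 FPKM for Ndufa12 and 88.2 and 92.3 FPKM for Ndufv3. The N module was thus spread on both sides of 0. The 5 members of the Q module, which passes electrons to coenzyme Q, were all lower with a median of -0.20, from Ndufs7 at -0.29 to Ndufs3 at -0.07. Ndufs7 shares its locus with another entry, and its approximate standard error was 6.46, so this low end carries little information. Ndufs8 came next at -0.27.

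All 19 tested members of the membrane arm, which holds the proton pumps, were lower, with a median of -0.27. The lowest was Ndufs5, at 9.34 and 5.08 FPKM, a difference of -0.88 with q = 0.759 in the authors' deposited table. Its entry shares its locus with another entry, and its approximate standard error of 1.91 was far above the median. Ndufb6 came next at 85.6 and 57.2 FPKM, a difference of -0.58, and its q was 0.0907 in the authors' deposited table. The annotation has an exon overlap of Ndufb6 with Smim27. Ndufb2 was 58.1 and 39.2 FPKM, a difference of -0.57 with q = 0.144 in the authors' deposited table. In the GENCODE annotation, beyond the span that the table gives, its exons overlap those of Braf on the opposite strand, and reads of overlapping genes cannot be told apart where strand is unknown. Ndufc1 and Ndufb8 followed at -0.50 and -0.39, and Ndufb4 was the least lower of the arm at -0.11. Apart from Ndufs5, the lowest membrane arm members were thus Ndufb6 and Ndufb2, and neither passed the test.

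Complex II, succinate dehydrogenase, is the 1 complex of the chain that is also an enzyme of the citric acid cycle, and all 4 of its genes were tested. The membrane anchor gene Sdhc was 84.2 and 62.3 FPKM in WT and Hdac3KO, a difference of -0.43 with q = 0.196 in the authors' deposited table. Sdhd, the other anchor, was 119 and 96.5 FPKM. Sdha, the flavoprotein, was 99.9 and 84.1 FPKM, and Sdhb, the iron-sulfur subunit, 112 and 97.4 FPKM. All 4 were lower in Hdac3KO, and the 4 genes had similar levels, within 84.2 to 119 FPKM in WT.

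In complex III, all 8 members were lower and 0 passed the authors' Cuffdiff test, with 3 lower at an unadjusted p under 0.05. Over all tested genes 6.95% were called and 8.95% were lower at that p, and differences from these shares were not tested. Uqcrfs1, the Rieske iron-sulfur protein that takes electrons from coenzyme Q, was 103 and 70.3 FPKM in WT and Hdac3KO, a difference of -0.56 with an approximate standard error of 0.21. Its q was 0.0542 in the authors' deposited table, just outside the threshold. The small subunit gene Uqcr10 was 208 and 144 FPKM, a difference of -0.53 with q = 0.0884 in the authors' deposited table. Uqcrq, at 196 and 147 FPKM, had q = 0.239 there. The core proteins Uqcrc1 and Uqcrc2 both stood at -0.32 and -0.33, and Uqcr11 at -0.33. The most abundant members had the smallest differences: Uqcrh was 344 and 315 FPKM and Uqcrb 223 and 198 FPKM, at -0.13 and -0.18. Cyc1, the cytochrome c1 gene that the symbol rule does not reach, was 93.7 and 72.5 FPKM.

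Complex IV, cytochrome c oxidase, held the largest decrease among members past the test. Cox7a2, a small subunit of the enzyme's periphery, fell 1.73-fold from 144 to 83.0 FPKM, a log2 fold change of -0.79 with an approximate standard error of 0.20 and q = 0.0016 in the authors' deposited table. In mm10 the gene spans positions 79755241 to 79759853 of chromosome 9, on the minus strand, and a GENCODE transcript of 4 exons and 659 bases represents it. Its entry shares its locus with no other entry, and no exon overlap with another gene was found. The related gene Cox7a2l lay the other way at 290 and 412 FPKM, a difference of 0.50 with q = 0.119 in the authors' deposited table. Cox7a2l was therefore 2.02 times the level of Cox7a2 in WT and 4.96 times in Hdac3KO. Cox7a1, the isoform of heart and skeletal muscle, was 3.97 and 4.68 FPKM, so in these cells the ubiquitous Cox7a2 exceeded it 36.3-fold in WT and 17.7-fold in Hdac3KO. The pairing of Cox7a2 with Cox7a2l was singled out after its values were seen, and the difference between them was not tested.

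**Figure D3:**
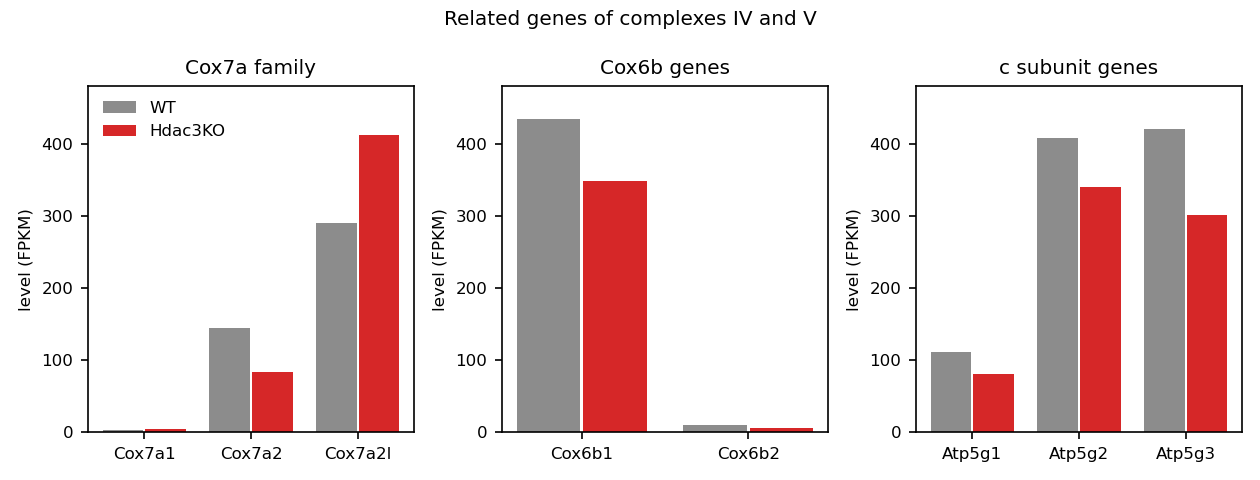
Levels in FPKM (y axis, from 0) of related genes of complexes IV and V, with WT in grey and Hdac3KO in red, 1 value per genotype and no error bars. Cox7a2 is lower and Cox7a2l higher in Hdac3KO, while Atp5g1, Atp5g2 and Atp5g3 are all lower.

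The other ubiquitous subunits of complex IV were lower without passing the test. Cox6c was 306 and 216 FPKM, a difference of -0.50 with q = 0.102 in the authors' deposited table. Annotated exons of Cox6c overlap those of Vps13b on the opposite strand, again beyond the span in the table. Cox7c was 98.3 and 70.3 FPKM and Cox8a 436 and 322 FPKM, at -0.48 and -0.44, with unadjusted p of 0.0240 and 0.0259 in the authors' deposited table. Cox6b1, Cox8a and Cox4i1, the most abundant members of the complex in WT, had 435, 436 and 418 FPKM in WT and 348, 322 and 346 FPKM in Hdac3KO. Cox5a stood at -0.34, Cox7b at -0.36 and Cox6a1 at -0.29. Cox5b was the least lower of the ubiquitous subunits, at 298 and 275 FPKM.

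Tissue-restricted isoforms were low. Cox6b2, a testis isoform, was 9.96 and 6.80 FPKM, while the ubiquitous Cox6b1 was 43.7 times higher in WT. Cox4i2, the hypoxia-linked partner of Cox4i1, was 0.38 and 0.20 FPKM, and Cox7b2, Cox8b and Cox8c were listed at 0 in both genotypes. Transcripts of muscle and testis were near 0 as well, with Prm1 at 0.66 and 0.79 FPKM, Ckm and Acta1 at 0.31 FPKM or less, and Myh1 and Tnp1 listed at 0.

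Complex V, ATP synthase, had 17 tested members, of which 16 were lower, and their median level was 294 FPKM in WT. The complex IV median of 145 FPKM in WT takes in untested isoforms at or near 0, so the complexes were not ranked by level. Atp5e, the epsilon subunit at the foot of the catalytic F1 head, fell 1.51-fold from 294 to 194 FPKM, a log2 fold change of -0.60 with an approximate standard error of 0.15 and q = 0.0428 in the authors' deposited table. In mm10 it spans positions 174461075 to 174464101 of chromosome 2, on the minus strand, and shares its locus with no other entry. At a q threshold of 0.01 it was no longer called. The other F1 genes lay closer to the median of the members: the catalytic subunit gene Atp5b was 479 and 390 FPKM, Atp5a1 409 and 335 FPKM, and Atp5c1 253 and 206 FPKM, at -0.30, -0.29 and -0.29. Atp5d was 161 and 158 FPKM. It shares a locus of the table with Ndufs7, on chromosome 10 from position 79697305 to 80369637, and the approximate standard errors of these 2 genes were 3.46 and 6.46, so their values carry little information.

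The Fo part of ATP synthase spans the membrane and turns on a ring of c subunits. Genes Atp5g1, Atp5g2 and Atp5g3 encode the same mature c subunit behind different import sequences. Atp5g1 was 111 and 81.6 FPKM in WT and Hdac3KO, Atp5g2 was 408 and 340 FPKM, and Atp5g3 was 420 and 302 FPKM. Together they gave 939 and 723 FPKM, with Atp5g1 at 11.8% and 11.3% of the sum. All 3 were lower, at -0.45, -0.26 and -0.48, with unadjusted p of 0.0221, 0.181 and 0.0166 and no q under 0.148 in the authors' deposited table. Atp5g3 was 3.78 times Atp5g1 in WT and 3.70 times in Hdac3KO, and Atp5g2 was 3.67 and 4.16 times Atp5g1. Differences between the 3 genes were not tested.

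The first 90 bases that encode the mature c subunit are shown because reads are assigned among these genes by the letters that differ. They are from GENCODE M21 transcripts, 5′ to 3′, with each position that is not the same in all 3 in capitals.
Atp5g1: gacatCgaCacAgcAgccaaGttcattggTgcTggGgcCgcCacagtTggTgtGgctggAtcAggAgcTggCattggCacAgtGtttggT
Atp5g2: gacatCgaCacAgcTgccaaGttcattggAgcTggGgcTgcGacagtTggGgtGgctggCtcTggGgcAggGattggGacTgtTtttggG
Atp5g3: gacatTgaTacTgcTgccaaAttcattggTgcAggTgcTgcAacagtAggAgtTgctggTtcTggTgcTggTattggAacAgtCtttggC

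Of these 90 positions 22 differed. Over the last 228 coding bases, Atp5g1 was 85.1% identical to Atp5g2 and 79.8% to Atp5g3, and Atp5g2 was 78.5% identical to Atp5g3. With 1 whole transcript taken per gene, of which that of Atp5g2 is coding sequence alone, the longest shared run was 21 bases for Atp5g1 and Atp5g2. It was 11 bases for Atp5g1 and Atp5g3 and 8 bases for Atp5g2 and Atp5g3.

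Other Fo and stalk genes were lower to a like degree. Atp5k, the e subunit, was the most abundant member in WT at 499 FPKM, and was 378 FPKM in Hdac3KO, a difference of -0.40 with q = 0.281 in the authors' deposited table. Atp5h was 425 and 355 FPKM, Atp5l 365 and 303 FPKM and Atp5j2 295 and 234 FPKM. Atp5o, which holds the head to the stalk, was 231 and 193 FPKM. Atp5j and Atp5f1 were at -0.27 and -0.18, and their exons overlap those of Gabpa and Wdr77 on the opposite strand. Of the factors that are not subunits, Atp5sl was 20.0 and 22.3 FPKM and Atp5s 6.02 and 5.75 FPKM.

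Genes that build or feed the chain were counted from 12 lists of 175 genes, of which 149 were tested, with 3 lower and 0 higher in the authors' deposited table, and 118 with a lower value. Their median log2 fold change was -0.19. Assembly factors lay nearer to 0 than the subunits did. The medians were -0.19 for 10 factors of complex I, -0.07 for 6 of complexes II and III and -0.16 for 12 of complex IV. For 4 genes of complex V, assembly factors and the inhibitor gene Atpif1, the median was 0.01. Of all these genes 0 passed the authors' Cuffdiff test. At an unadjusted p under 0.05, 3 were lower and 0 higher, against 8.95% and 8.16% of all tested genes. Atpif1, the inhibitor of ATP synthase, was 145 and 146 FPKM. The copper chaperone gene Cox17 was 94.9 and 70.0 FPKM.

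Slc25a5, an adenine nucleotide translocator that exchanges ATP for ADP across the inner membrane, fell 1.63-fold from 513 to 315 FPKM with q = 0.0146 in the authors' deposited table. Cycs, cytochrome c itself, was 58.1 and 39.2 FPKM with q = 0.0542 there, and the uncoupling protein gene Ucp2 was 436 and 550 FPKM. The 12 carriers and related genes had a median of -0.29. Coq7, a hydroxylase of coenzyme Q synthesis, fell 2.16-fold from 31.4 to 14.5 FPKM with q = 0.0016 in the authors' deposited table, and was the 1 called gene of 12 in that list, whose median was -0.08. The most abundant other gene there, Coq2, was 26.7 and 27.0 FPKM.

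The citric acid cycle and pyruvate list had 26 tested genes, 22 of them lower, with a median of -0.28 and 0 past the authors' Cuffdiff test. The most abundant genes of the list, Mdh2 and the cytosolic form Mdh1, were 165 and 126 FPKM and 159 and 111 FPKM. All 23 mitochondrial import genes were lower, with a median of -0.35, and Timm8a1, a chaperone of the intermembrane space, fell 1.64-fold from 34.7 to 21.1 FPKM with q = 0.0216 in the authors' deposited table. The chaperonin genes Hspd1 and Hspe1 were 169 and 117 FPKM and 158 and 113 FPKM. The 14 genes of mitochondrial shape and cristae were all lower, with a median of -0.18, and the 7 antioxidant genes had a median of -0.23. In contrast, 21 regulators of mitochondrial gene expression had a median of -0.02, with 11 lower and 0 past the authors' Cuffdiff test. At an unadjusted p under 0.05 in the authors' deposited table, 1 of them was higher and 2 were lower. Over all tested genes these shares were 8.16% and 8.95%. The regulators ranged from -1.85 for Pparg, at 0.63 and 0.17 FPKM, to 0.84 for Ppargc1a, at 0.64 and 1.15 FPKM. The most abundant were the YY1 gene at 60.8 and 69.1 FPKM and Hcfc1 at 53.8 and 50.5 FPKM. The symbol rule also misses Ndufab1, a complex I subunit that was 84.8 and 62.6 FPKM.

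**Figure D4:**
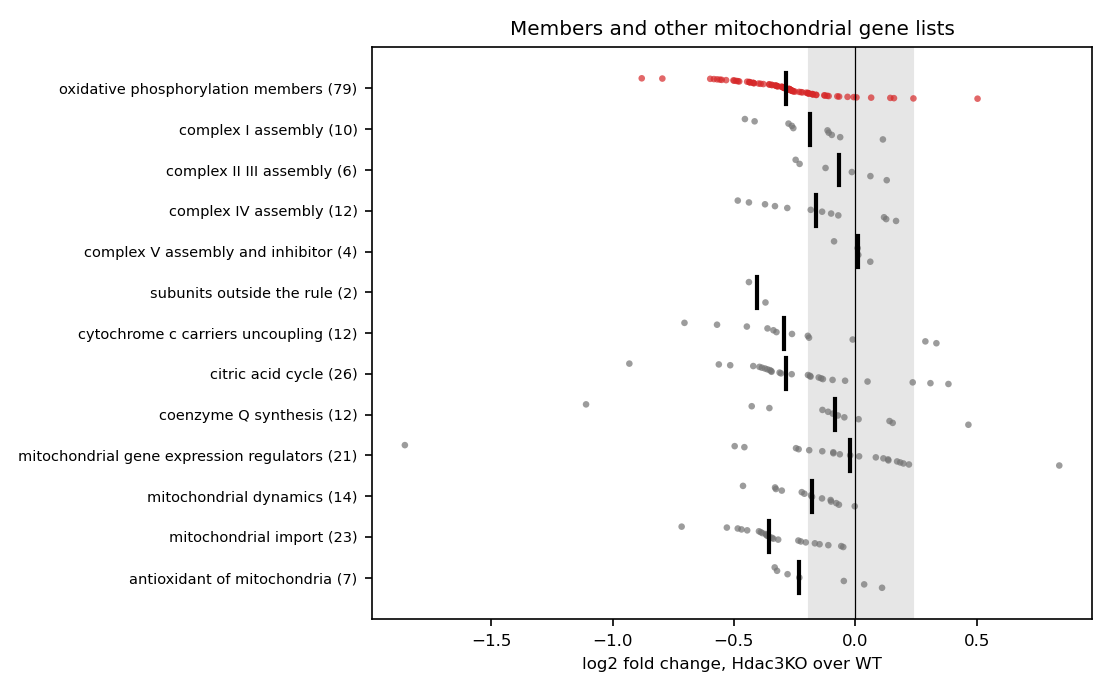
Log2 fold change (Hdac3KO over WT, x axis) of each tested gene in the members (red) and in 12 other gene lists (grey), with the number of genes in brackets, black bars for list medians and a grey band for the quartiles of all tested genes. Import genes, at -0.35, lie near the members at -0.29, and regulators, at -0.02, lie near 0.

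Transcript length moved with the fold change over all genes. Tested genes whose coding transcript has under 500 bases had a median of -0.15, those of 2000 to 4000 bases 0.04, and those of 4000 bases or more 0.08. Many members are short, with 56 of 78 under 1000 bases. The median of those 56 members was -0.28 and that of the 22 longer ones -0.29, while the medians over all tested genes of these lengths were -0.07 and 0.03. The 2 member medians were thus alike, though both called members have transcripts under 1000 bases. Members that share exons or a locus with another gene gave a median of -0.28 over 30 genes and the others -0.29 over 49.

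**Figure D5:**
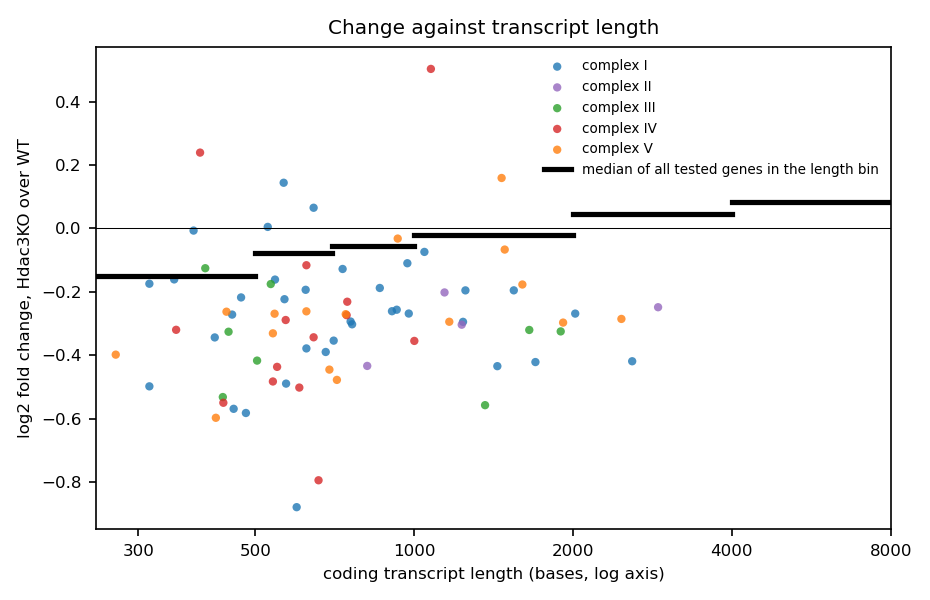
Log2 fold change (Hdac3KO over WT, y axis) of tested members against coding transcript length in bases (x axis, log), coloured by complex, with black bars for the median of all tested genes in each length bin. The bars climb from -0.15 to 0.08, and the members' median is below the bar in each bin that holds members.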

How the data were processed

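RNA was measured in 4 libraries, 2 per genotype, grouped by the sample titles. Per the labels' protocols, polyadenylated RNA was used after Trizol extraction. Per the submitters' processing notes, Trimmomatic 0.32, TopHat2 2.0.11 and Cuffdiff 2.1.1 were used with mm10. Strand, annotation and scaling were not given in the sources used here. In the deposited table each gene has 1 FPKM value per gene and genotype, per the file headers, with the authors' p-value and q-value. The deposited test statistic is a score of Cuffdiff, used only for approximate standard errors. Depth is unknown. Nothing says whether libraries were prepared separately, so p-values may measure technical spread alone.

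Fold changes were computed from FPKM without a pseudocount, and a gene was called at the authors' q under 0.05. No test was computed from the files. Members and lists were chosen with earlier results of these data known. Every member could be named; each complex account took the called members, the 3 most abundant, the 2 with the largest increase and decrease, and isoform pairs, and each other list its called and 2 most abundant genes. Further genes were named after their values were seen. Positions count from 1. Transcript lengths are the median coding transcript of the GENCODE M21 basic set, found for 83 of 84 members. The counts and medians were tested on simulated data. Alternatives varied the q threshold, a 1 FPKM minimum, a pseudocount of 1, centring, shared loci, the member set and transcript length. The work used matplotlib 3.10.9, numpy 2.4.6, pandas 2.3.3, scipy 1.17.1 and Python 3.11.15.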

Additional observations from a re-analysis of the deposited data

How the results depend on the processing

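Calls of single members depended on the threshold. At a q threshold of 0.01, 1 member was lower, with 189 genes higher and 345 lower over the whole table. At 0.1, 5 members were lower and 0 higher, with 490 genes higher and 674 lower over the table. At an unadjusted p under 0.05 there were 19 lower and 1 higher member, and 1035 higher and 1135 lower genes. With transcripts of at least 1000 bases, an alternative chosen after seeing the data, 0 of 22 members passed Cuffdiff's test, with 4 lower and 1 higher at an unadjusted p under 0.05. Of 10306 tested genes of that length, 298 were called higher and 447 lower. The median of complex IV then reversed to 0.074, over 2 genes, Cox7b and Cox7a2l. The other 41 of 42 medians under the alternatives run kept their sign and stayed within 0.1 log2 units, and that of all members ranged from -0.31 to -0.28. No paired analysis was possible because the table holds 1 value per genotype, and for the same reason no library could be left out. Unknown depth limits what the absence of a call shows for low members.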

Other observations

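Many members share a start region with a gene on the other strand. Among tested entries, 25 members had a protein-coding neighbour outside the rule whose annotated start, on the opposite strand, lay within 1000 bases of their own. Of these, 23 members and 14 neighbours had a lower value in Hdac3KO, the medians were -0.26 for the members and -0.02 for the neighbours, and 0 neighbours passed the authors' Cuffdiff test. Over all tested genes 6.95% were called, and 46.5% of those with a value above 0 in both genotypes were lower. Ndufa2, at -0.49, starts 99 bases from Ik, which was 97.2 and 111 FPKM. Uqcr10, at -0.53, starts 336 bases from Zmat5, which was 28.7 and 27.7 FPKM. Sdhd and the import gene Timm8b, 98 bases apart, were both lower, at -0.30 and -0.40. Cox4i1 and Cox4nb, which overlap at their starts, had differences of -0.27 and -0.23. These pairs were looked at after the members' values were seen, some of them share exons, and the difference between members and neighbours was not tested.

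The deposited statistic and p-value of some members do not rank alike. Atp5k had a test statistic of -4.01 and a p-value of 0.0469 in the authors' deposited table, while Cox7a2 had -4.04 and 5e-05 there. The approximate standard error of Atp5k, 0.10, was the smallest of the tested members.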
